A study of Mus musculus with 3 samples.

Results

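The genes described here are 35 lysosomal genes, namely hydrolases that work inside the lysosome, proteins of its membrane, the cholesterol exporters Npc1 and Npc2, 2 subunits of the proton pump and the transcription factor Tfeb. They were found in the table of 55487 genes by their symbols, and all 35 matched and reached 10 counts in 1 library or more, as did 17655 genes of the table, which are called genes in use. Their RNA was measured in embryoid bodies (EBs), aggregates in which cultured embryonic stem cells begin to form the first cell lineages. All EBs came from wild-type E14K mouse embryonic stem cells of 129P2/OlaHsd origin, formed in hanging drops in medium without leukemia inhibitory factor and then kept in suspension. The 3 conditions were the DMSO control on day 3, the DMSO control on day 4, and day 4 after 30 µM C2 ceramide, a ceramide with an acyl chain short enough to cross membranes, had been present from the beginning of day 3. Each condition had 1 library made from whole EBs of 1 cell line, so no difference can be set against a spread between cultures, and none was tested.

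The lysosome is an acidic compartment in which proteins, lipids, glycans and glycosaminoglycans are cut into their building blocks, which then leave through transporters in its membrane. A proton pump, the V-ATPase, keeps it acidic, and the sphingolipid hydrolases inside it cut complex sphingolipids step by step down to ceramide, which acid ceramidase then cleaves. TFEB and its relatives TFE3, MITF and TFEC are transcription factors that bind the letters CACGTG, often inside a longer form, upstream of many lysosomal genes, and the Rag GTPases and folliculin hold TFEB and TFE3 in the cytosol when nutrients are plentiful.

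Total counts ranged from 33619197 to 35290094 per library, and 13421 to 13683 genes had a level of at least 1 TPM, a unit per transcript length that adds to 1000000 in each library. Between DMSO day 3 and DMSO day 4 the summed level of 10 primitive streak markers was 94.5 and 1035 TPM, and with C2 ceramide on day 4 it was 74.1 TPM. Gene by gene, the 10 were split for C2 ceramide over DMSO day 3. There 5 of them were above 2-fold (11.2% of genes in use) and 1 was below 0.5-fold, with a median log2 ratio of 0.65. In RNA from whole EBs, fewer cells of a type and less RNA per cell cannot be told apart.

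The promoter letters known for lysosomal genes were read in the RefSeq windows of 250 bases before and 50 bases after each start site (mouse genome build GRCm38.p6), which were at hand for 32 of the 35 genes, for all except Ctsb, Npc1 and Galns. The windows printed here are the one with the most matches (Lamp1), 1 of the 5 with 2 matches (Gla), a pair with 1 copy of the 6-letter form (Glb1 and Gaa), and, as sites of at most 30 bases, those of genes that were higher, lower or little different with C2 ceramide. Capitals mark the longest match to CACGTG, to TCACGTGA or to a 10-letter form, which is TCACGTGA with a G before it and a C after it, and each of which reads the same on both strands and of which the longer ones hold the shorter.
Lamp1, chr8:13159081-13159160, plus strand: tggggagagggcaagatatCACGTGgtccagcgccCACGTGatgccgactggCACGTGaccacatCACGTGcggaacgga
Gla, chrX:134601171-134601250, minus strand: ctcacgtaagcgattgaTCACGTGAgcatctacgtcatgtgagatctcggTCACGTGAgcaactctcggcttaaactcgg
Glb1, chr9:114401008-114401057, plus strand: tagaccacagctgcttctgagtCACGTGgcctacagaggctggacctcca
Gaa, chr11:119267801-119267850, plus strand: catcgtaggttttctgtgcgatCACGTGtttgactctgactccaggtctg
Ctsa, chr2:164833749-164833772, plus strand: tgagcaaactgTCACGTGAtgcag
Ctsl, chr13:64370739-64370768, minus strand: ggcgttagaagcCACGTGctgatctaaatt
Sgsh, chr11:119355522-119355551, minus strand: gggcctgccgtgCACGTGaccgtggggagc
Naglu, chr11:101070009-101070038, plus strand: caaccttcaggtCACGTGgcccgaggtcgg
Cln3, chr7:126583340-126583369, minus strand: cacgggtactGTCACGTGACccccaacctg
Mcoln1, chr8:3500462-3500491, plus strand: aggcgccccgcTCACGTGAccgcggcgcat
Ctsd, chr7:142387908-142387937, minus strand: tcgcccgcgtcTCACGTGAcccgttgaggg

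The stretch of Lamp1 ends at the base before the start and holds 4 matches in 80 bases, while both matches in Gla are of the 8-letter form. The site of Ctsa lies before a second RefSeq start, 900 bases inside the gene, and that of Cln3 likewise before a second start 2581 bases inside the gene. The sites of Ctsl, Ctsd, Naglu and Mcoln1 also lie inside the gene, before RefSeq starts 370, 211, 82 and 62 bases in. That of Sgsh spans the annotated start of the gene. CACGTG was present in 14 of the 32 lysosomal genes (43.8%). It was present in 11.6% of 12140 genes in use and in 8.09% of all 27025 genes with a window. In the other lists read below, it was present in 3 of 17 hydrolases, 3 of 20 membrane proteins and 2 of 14 V-ATPase genes. It was present in 4 of 20 autophagy genes, 5 of 11 Rag, Ragulator and folliculin genes, 5 of 8 sorting genes and 0 of 3 TFEB relatives. The share of 43.8% thus describes the 32 genes and did not hold for every lysosomal list. TCACGTGA was present in Atp6v0d1, Atp6v1a, Cln3, Ctsa, Ctsd, Gla and Mcoln1, that is 7 of 32 (21.9%), and in 1.98% of genes in use. The 10-letter form was found in Cln3 (3.12% of the 32) and in 0.684% of genes in use. These shares describe letters in a window, and a gene with no match may carry them elsewhere.

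Levels of the lysosomal genes were mostly above the middle of the genes in use, and the lowest of them stood at percentile 19.7, 25.2 and 25.5 in the order DMSO day 3, DMSO day 4 and C2 ceramide. Their median was 26.5 TPM for DMSO on day 3, 34.0 TPM for DMSO on day 4 and 33.3 TPM for C2 ceramide, and 28 of the 35 stood in the upper part of the genes in use, above their median, in each library. Lamp1, which lines the lysosomal membrane, was the most abundant with 324, 351 and 475 TPM in that order, and Arsb, a sulfatase for dermatan sulfate, was the least abundant with 0.568, 1.08 and 1.02 TPM. At least 100 TPM were reached by 4 genes in each DMSO library and by 8 genes with C2 ceramide. Counts ran from 65 for Arsb on DMSO day 3 to 28526 for Lamp1 with C2 ceramide, so the precision behind the values below differs widely between genes.

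**Figure D1:**
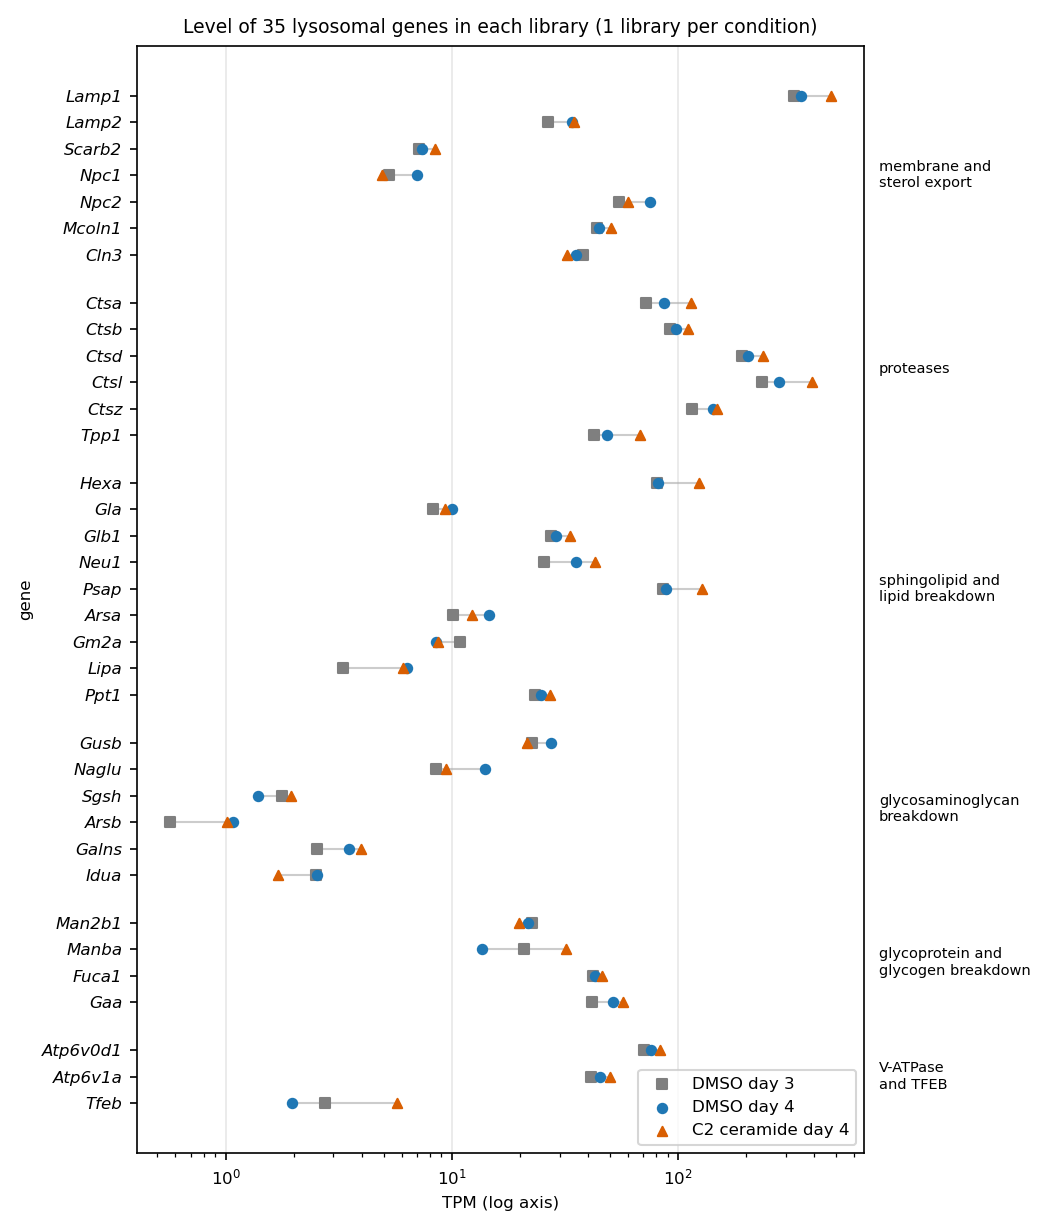
Level in TPM (log axis) of each of the 35 lysosomal genes, grouped by role, with 1 point per library: squares for DMSO day 3, circles for DMSO day 4 and triangles for C2 ceramide day 4. The triangle is the rightmost point for 23 genes and the square is the leftmost for 26, orders that were not counted over all genes in use.

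Summed over the 35 genes, the genes reached 1806 TPM in the DMSO library of day 3, 2016 TPM in that of day 4 and 2461 TPM under C2 ceramide, which is 0.181%, 0.202% and 0.246% of all transcripts. The sum thus was 1.12-fold higher between the DMSO days, and 1.22-fold higher with C2 ceramide than on DMSO day 4. Of the net difference of 445.3 TPM between the day 4 libraries, Lamp1 and the cysteine protease Ctsl made up 53.5%, and the sum of the other 33 genes was 1.15-fold higher with C2 ceramide. C2 ceramide had the highest of the 3 levels for 23 genes, DMSO day 4 for 9 and DMSO day 3 for 3, and the lowest level lay in DMSO day 3 for 26. The ordering with DMSO day 3 lowest and C2 ceramide highest was held by 20 genes. Among them were Lamp1, Lamp2, all 6 proteases, Hexa, Psap and both V-ATPase subunits. For 5 of the 20 (Hexa, Psap, Atp6v1a, Scarb2 and Mcoln1) the small step between the DMSO days changed sign under other scalings of the libraries. For Lamp2 and Galns the step with C2 ceramide lay within the counting error given below. The step between the DMSO days did so for Glb1, Ppt1 and Fuca1. None of these orders was counted over all genes in use, so no share stands beside them.

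To look for small shared shifts, TPM ratios were counted past 25% higher and past 20% lower (the same distance on the log scale), beside the thresholds of 2-fold and 0.5-fold used for the series. Between the DMSO libraries, 9 lysosomal genes were more than 25% higher on day 4, against 30.5% of all genes in use, and 4 were more than 20% lower, against 22.7%. None passed 2-fold (12.8% of genes in use) or fell short of 0.5-fold (9.45%). The ratio was above 1 for 29 of 35 (54.9% of genes in use), and its median on the log2 scale was 0.12, against 0.05 over all genes in use. Among the 11006 genes that reached 100 counts in each library, 22.4% were more than 25% higher and 14.6% more than 20% lower. Of those genes, 381 were above 2-fold and 233 below 0.5-fold. They include 34 of the lysosomal genes, of which 8 were more than 25% higher and 4 more than 20% lower.

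With C2 ceramide over DMSO on day 4, 9 genes were more than 25% higher (24.5% of genes in use), 5 were more than 20% lower (29.1%), and 21 lay between. Tfeb and the β-mannosidase gene Manba were above 2-fold (9.97%), and none was below 0.5-fold (12.3%). The median log2 ratio was 0.14, against -0.03 over all genes in use, and 24 genes were above 1 (46.5%). The 95% interval of counting error, an exact interval from the counts that does not include differences between cultures and counts PCR copies as separate molecules, lay above 1 for 21 genes (30.8%) and below 1 for 8 (35.1%). The 8 were Npc1, Npc2, Cln3, Arsa, Gusb, Naglu, Idua and Man2b1. Low-count genes scatter more, so the same was read among the 11006 genes that reached 100 counts in each library, which hold 34 of the 35 lysosomal genes, all except Arsb. There 17.9% were more than 25% higher, 19.8% more than 20% lower and 47.7% above 1, with a median of -0.02. Of these 11006 genes, 326 were above 2-fold and 333 below 0.5-fold, smaller shares than over all genes in use. The interval of counting error lay above 1 for 3834 of them and below 1 for 4256, larger shares than over all genes in use. Both comparisons use the DMSO day 4 library, so a value that is high or low there enters both, with opposite sign.

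**Figure D2:**
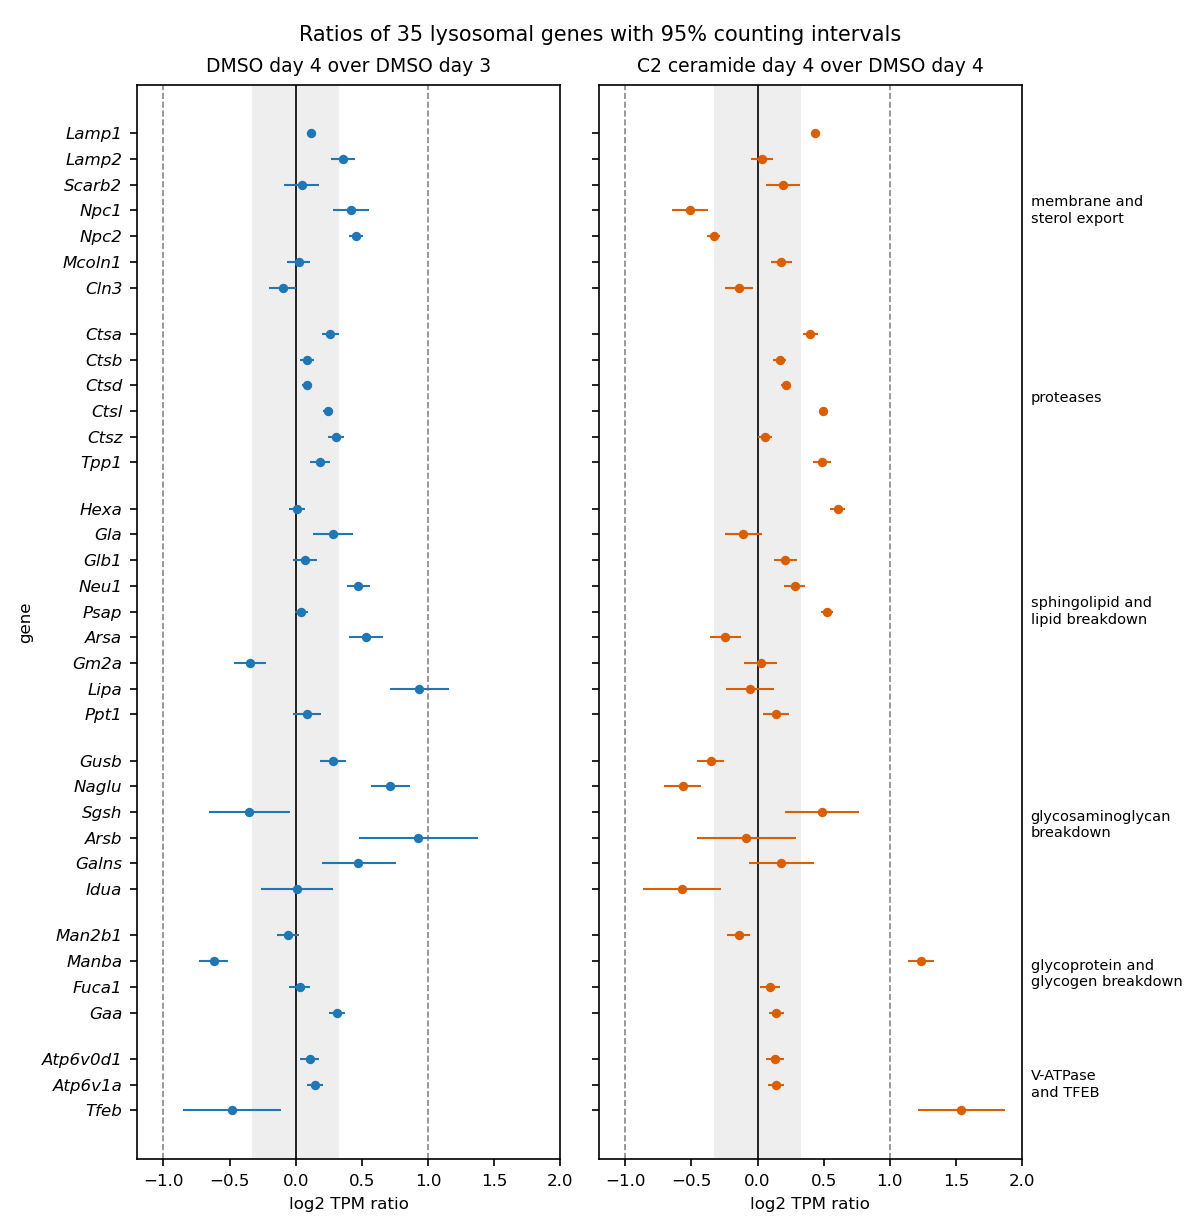
Log2 TPM ratio of each lysosomal gene for DMSO day 4 over DMSO day 3 (left) and C2 ceramide day 4 over DMSO day 4 (right), with bars for the 95% interval of counting error, grey for the range from 20% lower to 25% higher and dashed lines at 0.5-fold and 2-fold. Most points on the right lie above 0 and inside 2-fold, Manba at 1.24 and Tfeb at 1.54 lie outside it, and Npc1, Naglu and Idua lie lowest.

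**Figure D3:**
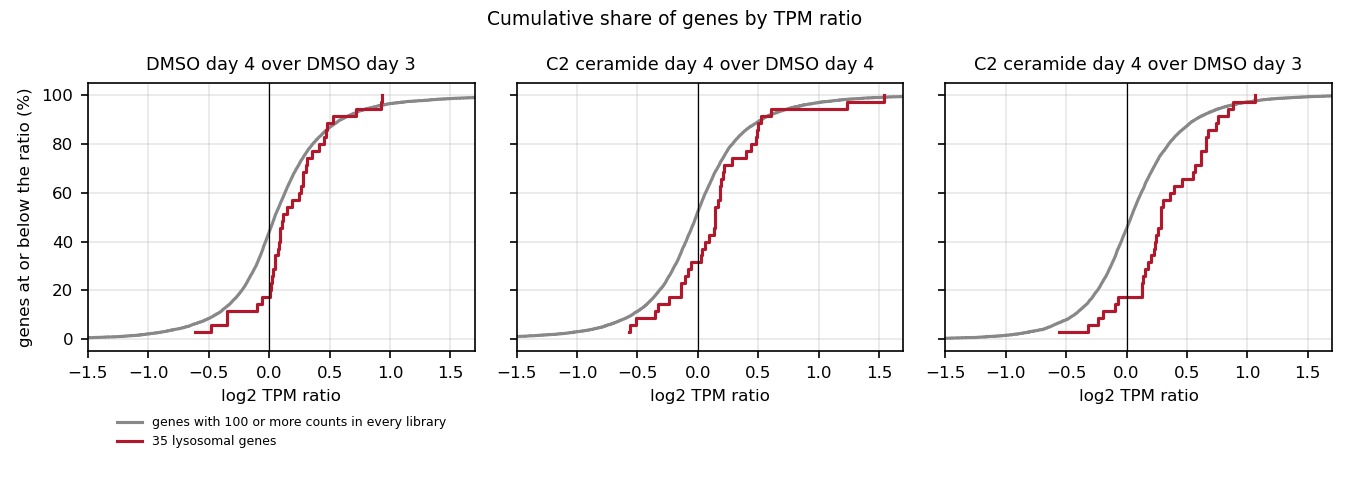
Cumulative share of genes (%) against the log2 TPM ratio for the 3 comparisons, with the 35 lysosomal genes in red and the genes that reached 100 counts in each library in grey. In each panel the red line runs to the right of the grey one through its middle, with a red median of 0.12, 0.14 and 0.28 and a grey median of 0.05, -0.02 and 0.04, and it meets the grey line at the upper end.

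The genes of the lysosomal membrane and of sterol export did not move as a block with C2 ceramide. Their summed level was 500.1, 555.4 and 666.3 TPM, but this sum is mostly Lamp1, and the median log2 ratio of the 7 genes with C2 ceramide over DMSO day 4 was 0.03. Lamp1 had 18807 counts on DMSO day 3, 20834 on DMSO day 4 and 28526 with C2 ceramide, and its log2 ratio over DMSO day 4 was 0.44 (interval 0.41 to 0.46). The opposite strand of Lamp1 carries Grtp1, which had 711, 578 and 1152 counts, a small part of those of Lamp1. Lamp2, its close relative, was at 26.5, 34.0 and 34.8 TPM. For Lamp2 the DMSO day 3 library was low and the day 4 libraries lay together, with a log2 ratio of 0.36 between the DMSO libraries and 0.03 (interval -0.05 to 0.12) with C2 ceramide.

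Scarb2, which carries glucocerebrosidase to the lysosome, was at 7.14, 7.37 and 8.41 TPM, and Mcoln1, a channel that lets calcium out of the lysosome, at 43.9, 44.6 and 50.6 TPM. Their log2 ratios with C2 ceramide, 0.19 and 0.18, were small and above the counting error. Npc1 and Npc2, which together pass cholesterol out of the lysosome, had the other pattern. Npc1 had 802, 1045 and 773 counts, with a log2 ratio of 0.42 between the DMSO days and -0.51 (interval -0.65 to -0.38) with C2 ceramide. Npc2 was at 55.0, 75.5 and 59.99 TPM, with log2 ratios of 0.46 and -0.33. For both, DMSO day 4 stood above the other libraries. Npc2, at 0.794-fold, lay just past the limit of 20% lower, and by counts per library total it lay inside it. Cln3, the membrane protein lost in juvenile Batten disease, had the lowest level with C2 ceramide, with 38.0, 35.5 and 32.2 TPM, although its coding transcripts alone were level between the day 4 libraries (log2 ratio 0.01).

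Of the roles, the 6 proteases were the group in which every gene was higher with C2 ceramide than on DMSO day 4, and on DMSO day 4 than on DMSO day 3. This holds for these 6 genes, and other lysosomal proteases were higher or lower with C2 ceramide than on DMSO day 4. Their summed level was 750.4, 858.3 and 1070 TPM, and the median log2 ratio with C2 ceramide over DMSO day 4 was 0.31. Ctsl, a cysteine protease, was at 235, 279 and 393 TPM, from 10749, 12512 and 18016 counts. Its log2 ratio was 0.24 between the DMSO days and 0.50 (interval 0.46 to 0.53) with C2 ceramide. Ctsa, a carboxypeptidase that also shields β-galactosidase and the sialidase Neu1 from breakdown, was at 72.1, 86.3 and 113.9 TPM and had a log2 ratio of 0.40 over DMSO day 4. The aspartic protease Ctsd, at 192.7, 204.3 and 236.9 TPM, and the cysteine protease Ctsb, at 92.4, 98.2 and 110.3 TPM, had log2 ratios of 0.21 and 0.17. Ctsb differed little between the libraries while Fdft1, which overlaps it on the opposite strand, had 6570, 4800 and 3665 counts. Ctsz was at 115.6, 142.6 and 148.4 TPM, so most of its difference lay between the DMSO days. Tpp1, which removes tripeptides from protein ends, was at 42.5, 48.4 and 67.8 TPM and had a log2 ratio of 0.49 with C2 ceramide by TPM and 0.30 by counts per library total.

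Among the genes for the breakdown of sphingolipids and other lipids, the 5 more abundant ones were higher with C2 ceramide and the 4 least abundant ones (Gla, Arsa, Gm2a and Lipa) did not exceed DMSO day 4 beyond the counting error. The sum over the 9 genes was 275.1, 298.2 and 390.8 TPM, or 1.31-fold over DMSO day 4, the highest ratio of sums of the 6 roles. Hexa and Psap made up most of this difference, with 42.4 and 38.7 TPM. The median log2 ratio of the 9 genes was 0.14, below the 0.31 of the proteases. Hexa, the α subunit of β-hexosaminidase, was at 80.6, 81.3 and 123.7 TPM from 4313, 4456 and 6861 counts. For Hexa the DMSO libraries lay together and C2 ceramide stood above them, with a log2 ratio of 0.61 (interval 0.55 to 0.66). Psap encodes prosaposin, which is cut into the saposins that lift sphingolipids from the membrane for their hydrolases. Its levels of 85.8, 88.4 and 127.1 TPM followed the same pattern, with a log2 ratio of 0.52 (interval 0.48 to 0.57). Gm2a, which presents GM2 ganglioside to hexosaminidase, did not: it was at 10.8, 8.53 and 8.68 TPM, highest on DMSO day 3.

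The sialidase Neu1 was at 25.6, 35.5 and 43.1 TPM, a stepwise order with log2 ratios of 0.47 and 0.28. β-galactosidase (Glb1) was at 27.3, 28.8 and 33.3 TPM, and Ppt1, which removes fatty acids from proteins, at 23.4, 24.8 and 27.3 TPM. Both were slightly higher with C2 ceramide, with log2 ratios of 0.21 and 0.14. The α-galactosidase gene Gla, whose window holds 2 copies of TCACGTGA, was at 8.24, 10.0 and 9.30 TPM and had a log2 ratio of -0.11 (interval -0.25 to 0.03). Arsa, which removes sulfate from sulfatide, was at 10.1, 14.6 and 12.3 TPM and had a log2 ratio of -0.24 with C2 ceramide. The acid lipase gene Lipa had 264, 494 and 488 counts. Its level differed between the DMSO days by 0.94 on the log2 scale (interval 0.72 to 1.16), the largest such ratio of the 35 genes, and hardly at all between the day 4 libraries (-0.06).

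The glycosaminoglycan hydrolases formed the one role whose summed level was lower with C2 ceramide than on DMSO day 4. The sum of the 6 genes was 38.4, 49.9 and 39.6 TPM, or 0.792-fold over DMSO day 4, and their median log2 ratios were 0.38 between the DMSO days and -0.22 with C2 ceramide. Gusb (β-glucuronidase) was at 22.5, 27.4 and 21.5 TPM and had a log2 ratio of -0.36 with C2 ceramide. Naglu, an enzyme of heparan sulfate breakdown, had 605, 1022 and 696 counts, and its log2 ratios were 0.72 (interval 0.57 to 0.87) and -0.57 (interval -0.71 to -0.42). Both genes were highest on DMSO day 4. Idua (α-L-iduronidase) was at 2.51, 2.53 and 1.71 TPM, where C2 ceramide stood below both DMSO libraries, with a log2 ratio of -0.57 (interval -0.86 to -0.28). Dgkq overlaps Idua on the opposite strand and had 338, 381 and 532 counts, more than the 217, 232 and 171 of Idua.

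The other glycosaminoglycan genes were low, and their intervals were wide. The heparan sulfatase gene Sgsh had 181, 186 and 263 counts, and its log2 ratio of 0.48 with C2 ceramide had an interval of 0.21 to 0.77. Arsb had 65, 126 and 120 counts, with DMSO day 3 low and the day 4 libraries together. Galns, a keratan sulfate sulfatase, had 183, 261 and 298 counts, and its log2 ratio of 0.18 with C2 ceramide had an interval of -0.07 to 0.43. Galnt2l on the other strand of Galns had 43, 217 and 59 counts.

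Of the genes for glycoprotein and glycogen breakdown, Manba stood apart. In the order DMSO day 3, DMSO day 4 and C2 ceramide its levels were 20.9, 13.6 and 32.1 TPM, from 1564, 1194 and 2425 counts, so DMSO day 4 was low and C2 ceramide high. The log2 ratio was -0.62 between the DMSO days and 1.24 (interval 1.14 to 1.34) with C2 ceramide, or 1.01 by counts per library total. The α-mannosidase gene Man2b1, which cuts the other mannose linkages, was at 22.7, 21.8 and 19.8 TPM and was lowest with C2 ceramide. Fuca1, which removes fucose, was at 42.2, 43.1 and 46.0 TPM. The acid glucosidase gene Gaa, which breaks down glycogen, was at 41.6, 51.7 and 57.1 TPM, with log2 ratios of 0.31 and 0.14.

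The V-ATPase subunits differed little. Atp6v0d1, part of the membrane sector, was at 70.7, 76.1 and 83.5 TPM, and Atp6v1a, the catalytic subunit of the cytosolic sector, at 41.1, 45.4 and 50.02 TPM. Their log2 ratios with C2 ceramide were 0.13 and 0.14, small but above the counting error.

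Tfeb (chr17:47737030-47792419 of GRCm38, plus strand) had the largest log2 ratio of the 35 genes with C2 ceramide over DMSO day 4. In the same order the level was 2.75, 1.97 and 5.73 TPM, from 147, 109 and 274 counts. C2 ceramide stood above both DMSO libraries, with a log2 ratio of 1.54 (interval 1.22 to 1.87) over DMSO day 4 and 1.06 (interval 0.77 to 1.36) over DMSO day 3. By counts per library total the first was 1.32. Even with C2 ceramide, Tfeb was among the 11 of the 35 genes under 10 TPM.

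Matches to CACGTG were found in genes on both sides of this comparison and between the limits. Of the 9 genes more than 25% higher with C2 ceramide, 4 held a match (Lamp1, Ctsl, Ctsa and Sgsh, 44.4%), and of the 19 genes between the limits that have a window, 9 did (47.4%). Naglu was the 1 gene with a match among the 4 genes more than 20% lower that have a window. Hexa, Psap, Manba, Tpp1 and Tfeb, which were more than 25% higher, held no match in theirs, and Cln3 with the 10-letter form had a log2 ratio of -0.14.

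Because TPM adds up transcripts of very different length, the transcript table was read for genes whose TPM and count ratios disagreed. The most abundant transcript was the same in every library for 33 of the 35 genes, all except Cln3 and Gaa. In Manba, the coding transcript was at 14.6, 11.0 and 21.8 TPM and had a log2 ratio of 0.99 over DMSO day 4, just short of 2-fold. A short processed transcript of Manba added 4.04, 0.611 and 7.80 TPM from 7, 1.1 and 14 estimated counts, which widened the ratio of the gene. The coding transcripts of Tpp1 were at 21.1, 25.3 and 29.9 TPM, and their log2 ratio with C2 ceramide was 0.24, so the share of Tpp1 in coding form was 52.3% on DMSO day 4 and 44.1% with C2 ceramide. Ctsa was likewise at 0.29 when counted by coding transcripts. In Tfeb the coding transcripts gave 1.40, and in Hexa and Lamp1 a single transcript held nearly all of the level. Summing coding transcripts alone, 7 genes were more than 25% higher and 5 more than 20% lower with C2 ceramide over DMSO day 4, with a median of 0.15. Tpp1, Ctsa and Npc2 (-0.31) then came inside the limits and Arsa (-0.39) passed the lower one, so the 5 lower genes were not the same.

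**Figure D4:**
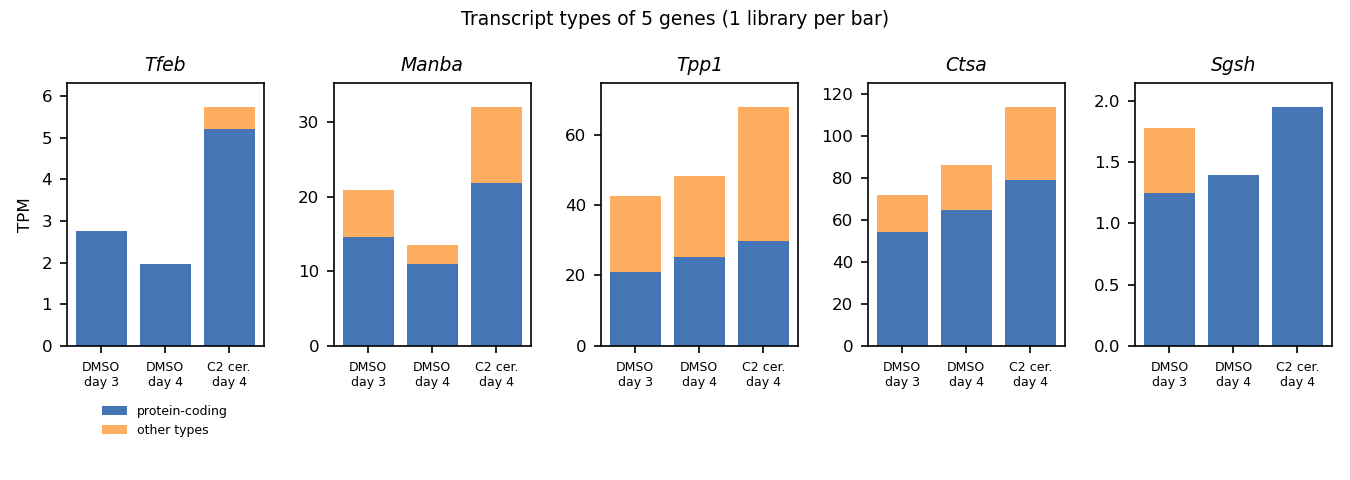
Level in TPM of protein-coding transcripts (blue) and of other transcript types such as retained introns (orange) for 5 genes, with 1 bar per library and separate axes starting at 0. The coding part of Tfeb and Manba is highest with C2 ceramide, while much of the difference in Tpp1 lies in the orange part.

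The rest of the pathway was read from other gene lists, beside the 24.5% and 29.1% of all genes in use that were more than 25% higher and more than 20% lower with C2 ceramide over DMSO day 4, and their median log2 ratio of -0.03. The relative of TFEB, Tfe3, was at 52.9, 31.0 and 51.6 TPM, low on DMSO day 4, and had log2 ratios of -0.77 and 0.73 (interval 0.66 to 0.81). Mitf had 11, 32 and 54 counts and was under 1 TPM throughout, at 0.088, 0.672 and 0.494 TPM. Its counts and its TPM thus went opposite ways between the day 4 libraries. Of the 12 genes of the Rag GTPases, Ragulator and folliculin complex, 3 were more than 25% higher with C2 ceramide over DMSO day 4 and none more than 20% lower, with a median log2 ratio of 0.17. The 3 were Rragb (67.1, 40.8 and 61.7 TPM), Flcn (59.6, 49.4 and 71.1 TPM) and Rragc (45.0, 45.8 and 62.7 TPM). Of the 19 other V-ATPase genes in use, 7 passed the upper limit and none the lower one, with a median of 0.12. Atp6v0b was at 266.5, 268.0 and 368.8 TPM, and Atp6v0c, which forms the proton-carrying ring, at 343.6, 368.8 and 485.4 TPM.

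The 27 other lysosomal hydrolases in use were split, with 8 past the upper and 7 past the lower limit and a median of 0.10. Asah1, the acid ceramidase that cleaves ceramide in the lysosome, was at 64.2, 65.5 and 106.7 TPM and had a log2 ratio of 0.70 (interval 0.64 to 0.77) over DMSO day 4. The protease gene Ctsc was highest on DMSO day 4, at 22.2, 49.1 and 27.3 TPM, unlike the 6 proteases above. Of 22 other membrane proteins, 8 were past the upper and 5 past the lower limit, with Mcoln3 at 8.24, 5.68 and 12.4 TPM and the intramembrane protease Sppl2a at 3.18, 6.38 and 3.13 TPM. Of 26 autophagy genes, 6 were past the upper and 3 past the lower limit, and the kinase genes Ulk1 (17.7, 17.5 and 31.0 TPM) and Ulk2 (1.44, 3.28 and 1.60 TPM) lay on opposite sides. The 10 genes of hydrolase sorting to the lysosome, through the mannose 6-phosphate tag or otherwise, had 1 on each side. Gnptg was at 18.8, 21.5 and 28.2 TPM, and Sort1 had a log2 ratio of -0.51.

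**Figure D5:**
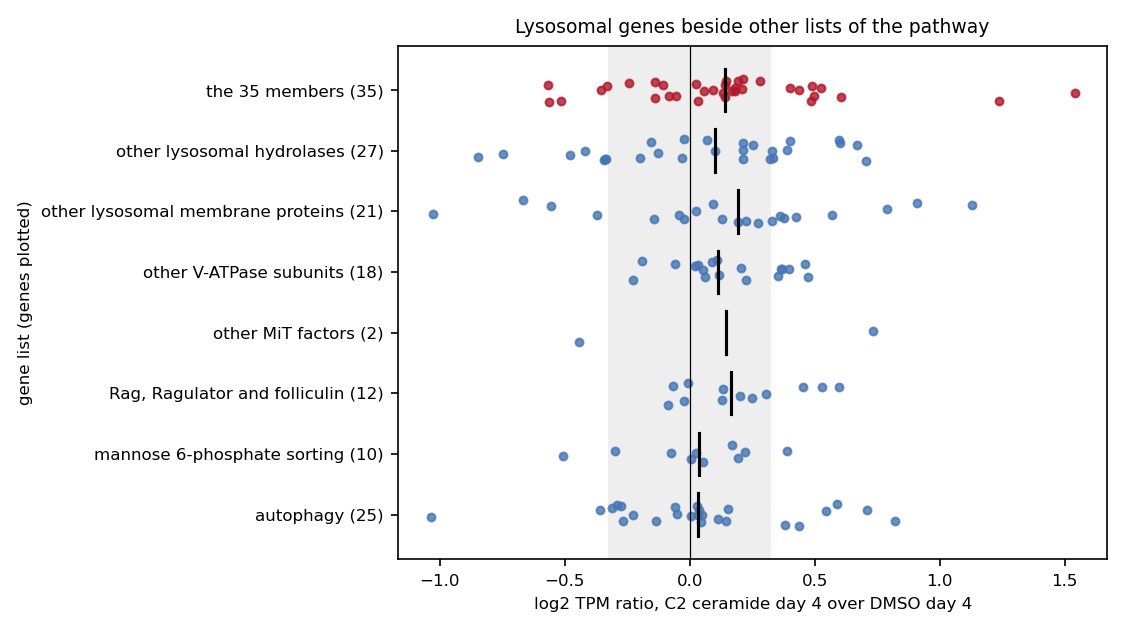
Log2 ratio of TPM between C2 ceramide and DMSO on day 4 for the 35 lysosomal genes (red) and for genes of 7 other lists that reached 50 counts in some library (blue), with black bars for the medians of the plotted genes and grey for the range from 20% lower to 25% higher. The medians of the lists lie above 0 and inside the grey band, and the other hydrolases, membrane proteins and autophagy genes fall on both sides of the band.

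The gene table marks 131 genes with the lysosome pathway of KEGG, of which 118 were in use and 33 are among the 35. For the 85 left without them, the median log2 ratio was 0.18 between the DMSO days, 0.05 with C2 ceramide over DMSO day 4 and 0.30 with C2 ceramide over DMSO day 3. With C2 ceramide over DMSO day 4, 24 were past the upper and 19 past the lower limit, where the 35 had 9 and 5.

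Over DMSO day 3, the library from before the last day of culture, C2 ceramide differed in more of the 35 genes than over DMSO day 4. The median log2 ratio was 0.28 (0.03 over all genes in use), and 29 genes were above 1 (52.4%), 15 were more than 25% higher (28.6%) and 1, Idua, was more than 20% lower (24.1%), with Tfeb above 2-fold (11.2%). Among the 11006 genes that reached 100 counts in each library, 21.9% were more than 25% higher and 14.8% more than 20% lower. Of those genes, 304 were above 2-fold, and of the 34 lysosomal genes among them 14 were more than 25% higher. Neu1 (0.75), Ctsl (0.74), Tpp1 (0.67) and Ctsa (0.66) had log2 ratios well above their counting error. Lipa (0.88) and Arsb (0.84) did as well, with nearly that level already on DMSO day 4. Npc1 (-0.10), Gusb (-0.07) and Naglu (0.15) had a level with C2 ceramide near that of DMSO day 3, since in these DMSO day 4 was the library that stood apart. This comparison spans both a day of culture and the treatment, which cannot be told apart in it.

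Endoderm of the early embryo and macrophages are rich in lysosomes, so their markers were read beside the lysosomal genes. The 18 visceral and primitive endoderm markers summed to 1971, 1862 and 2908 TPM, but Apoe alone gave 1948, 1471 and 2875 TPM. The lineage regulators Gata6 (0.087, 37.7 and 0.775 TPM) and Sox17 (0.515, 253.7 and 2.26 TPM) were high on DMSO day 4 and low with C2 ceramide, Apoa4 was at 0 in every library, and with C2 ceramide over DMSO day 4 6 markers were past the upper and 9 past the lower limit. The 8 parietal endoderm markers summed to 165.1, 220.6 and 345.1 TPM, of which Sparc gave 132.8, 157.6 and 306.3 TPM, and with C2 ceramide over DMSO day 4 3 of the 8 were past the upper and 5 past the lower limit (median log2 ratio -0.57). The 10 macrophage and blood cell markers were each under 1 TPM in every library, with Tyrobp at 0 in all 3, and summed to 0.86, 1.65 and 0.86 TPM. The pluripotency markers summed to 2205, 1517 and 1943 TPM, a pattern with DMSO day 4 lowest, as for Tfe3, Manba and Tfeb. The 8 neural progenitor markers summed to 177.6, 166.0 and 147.8 TPM, most of it Otx2, while 7 of the 8 were past the upper limit with C2 ceramide over DMSO day 4, 6 of them above 2-fold (median log2 ratio 1.51), with Otx2 past the lower limit and Sox1 at 0 in both DMSO libraries. Of the 10 pluripotency markers, 8 were past the upper and 1 past the lower limit (median 1.05). The part of these marker differences in the lysosomal values was not tested.

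The cDNA kit did not mark strand, and 12 of the 35 genes are overlapped by another gene with at least 10 counts. Reads of such pairs can be told apart only outside the overlap. Besides those named above, Pltp on the other strand of Ctsa had 3809, 1880 and 3177 counts, Rmc1 beside Npc1 had 1057, 923 and 1138, Nelfcd beside Ctsz had 5698, 6635 and 5670, and Tmppe, on the same strand as Glb1, had 596, 539 and 579. In these pairs the neighbour had another order over the 3 libraries than the lysosomal gene. Cap1, on the other strand of Ppt1, had 6487, 7405 and 7626 counts, the same order as Ppt1 and more counts than its 1389, 1518 and 1704. The part of the neighbours' reads in the values was not tested.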

How the data were processed

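RNA of 3 EB cultures was extracted, treated with DNase I, made into cDNA with SMART-Seq v4 and sequenced. The authors mapped reads with DRAGEN to GRCm38 with GENCODE M25 and deposited TPM values and estimated counts per gene and per transcript. The expected counts deposited by the authors are not whole numbers and were rounded for intervals and scaling factors. Strand settings of the counting are not given in the sources used here.

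TPM ratios were computed in Python 3.11.15 with pandas 2.3.3 and SciPy 1.17.1, with a TPM of 0 set to 0.001. Intervals are exact conditional (Clopper-Pearson) 95% intervals of the ratio of counts per library total, moved by the difference between that ratio and the one in TPM. Ratios were counted past 25% higher and 20% lower and past 2-fold and 0.5-fold. No test was possible with 1 library per condition. The 35 genes and the other lists were chosen with earlier results of these data known. Any of the 35 could be named, and so could the TFEB relatives. Of each pathway list, 4 genes with at least 50 counts could be named. These had the log2 ratios of C2 ceramide over DMSO day 4 farthest from 0 in either direction. Markers were named when at 0 or at 50 counts or more. Alternatives were pseudocounts of 0.1 and 1 TPM, counts per library total (CPM), TMM factors (edgeR 4.0.16), DESeq2 1.42.0 size factors, other filters, transcript sums, protein-coding genes and thresholds of 1.5-fold and 2-fold. The sum of coding transcripts was chosen after seeing the data. The ratio and interval steps were tested on simulated data.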

Additional observations from a re-analysis of the deposited data

How the results depend on the processing

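No paired analysis was possible because each condition has 1 library, and for the same reason no library could be left out. Of the medians, counts and sums, 104 values under the alternatives stayed within the counting interval or within 1.5 times the reported count, 21 moved, and no median or sum changed direction. The median between the DMSO days was 0.056 with TMM factors and 0.062 with DESeq2 size factors, in place of 0.12. With a pseudocount of 1 TPM, 2 genes were more than 20% lower between the DMSO days. At 1.5-fold, 3 genes were higher and 1 lower between the DMSO days, 3 higher and 0 lower with C2 ceramide over DMSO day 4, and 0 lower with C2 ceramide over DMSO day 3. At 2-fold these were 0 and 0, then 2 and 0, and 1 and 0 over DMSO day 3. With C2 ceramide over DMSO day 3, 2 genes were more than 20% lower by CPM, by TMM and by DESeq2 size factors, and 0 by coding transcripts. By CPM, the summed ratio of C2 ceramide over DMSO day 4 was 1.18 for the membrane genes, 1.15 for glycoprotein and glycogen breakdown and 1.20 for all 35. The causes were not tested, apart from the thresholds, which admit fewer genes by construction. Among single genes, no direction with C2 ceramide over DMSO day 4 changed under the other settings apart from that of Cln3 by coding transcripts (0.01), while Npc2, Tpp1, Sgsh and Ctsa came inside the limits under at least 1 of them, and Arsa passed the lower limit by coding transcripts (-0.39). Between the DMSO days, 7 genes near 1 changed direction under other scalings (Atp6v1a, Hexa, Idua, Man2b1, Mcoln1, Psap and Scarb2), and so did Sgsh by coding transcripts (0.16). The depth leaves Arsb, Sgsh, Galns, Idua and Tfeb with the widest intervals, and variation between cultures was not measured at any depth.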
